A study of Taeniopygia guttata with 24 samples.

Results

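Male and female telencephalons of zebra finches (Taeniopygia guttata) were compared at 20 days post hatch (dph). The comparison rested on 6 of the 24 samples of the study, the 3 samples labelled male and the 3 labelled female at this age, and on all 13891 genes that passed the filter on low counts. The study sequenced mRNA of the telencephalon at 1, 20 and 65 dph and in adults of both sexes. Each sample was a pool of the RNA of 3 birds of one sex and one age, raised in an aviary, and birds of one nest had been assigned to the ages at random. There were 3 such pools of males and 3 of females at 20 dph, so that each value averages over 3 birds and the error given is the spread between pools. The whole telencephalon was taken, so that fewer cells of a type and less RNA per cell cannot be told apart.

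Male birds carry a pair of Z chromosomes, whereas females carry a single Z and a W chromosome, so that a Z gene without any compensation is read from a double dose in males. Birds lack the chromosome-wide silencing known from the mammalian X, and the compensation of Z genes is partial and differs from gene to gene. Around this age young males begin to memorize the song of a tutor, which females of this species do not learn to sing, and the song nuclei of the telencephalon start to differ between the sexes.

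The samples of 20 dph held 20805764 to 28772178 counts each, and 3 counts stood for 0.109 to 0.150 cpm (counts scaled to the library size after TMM normalization), a floor that covers counting error only. No sample of this age stood apart, with Pearson correlations of log2(cpm + 1) across genes between 0.992 and 0.994 within a sex and between 0.989 and 0.993 between the sexes. The sum over 9 markers of telencephalic neurons was between 3809 and 3910 cpm in male and between 3770 and 3935 cpm in female samples. Among the 10 lists of cell type markers with members in the tested genes, that of endothelium and mural cells held 1 called gene, the Z gene TEK, and the others none. Only 1 to 9 markers per list were found. Over all genes 0.249% of non-Z and 53.7% of Z genes were called, so that a lack of calls in lists this short says little of cell makeup. The sum over 7 markers of striatal projection neurons was 571 to 604 cpm in male and 537 to 555 cpm in female samples, without overlap (exact two-sided permutation p = 0.1, the smallest possible), and its part in other results was not tested. The single markers of this list went both ways. Their log2 fold changes, male over female, lay between -0.21 and 0.26 with a median of 0.04, and 4 of the 7 were above 0. Of the tested genes, 639 were Z genes and 13252 non-Z genes, the class that also takes in genes whose chromosome is not known here. A chromosome was given for 3818 tested genes, Z genes among them, so that most genes of the non-Z class had none. A symbol was known for 585 of the Z genes and 2887 of the non-Z genes.

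A sex difference at 20 dph was called for 376 genes, 2.71% of those tested, at an adjusted p below 0.05 from edgeR's quasi-likelihood test with Benjamini-Hochberg adjustment over all genes. Higher expression in males was called for 350 genes, a background of 2.52% of all tested genes, and higher expression in females for 26 genes, or 0.187%. Z genes made up 339 of the 350 genes higher in males and 4 of the 26 higher in females. The remaining 11 genes higher in males and 22 higher in females were non-Z genes. More than 1 in 2 Z genes, 53.7%, were called, against 0.249% of non-Z genes, most of which have no known chromosome here.

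All 376 called genes had no overlap between the values of the sexes. Over all tested genes the male samples all lay above the female samples for 7.21%, and all below them for 9.55%. Among Z genes the male samples all lay above the female samples for 497 of 639 and all below them for 10. Among non-Z genes these numbers were 505 and 1316 of 13252, counted under the main scaling only.

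The median male-to-female (M:F) ratio of mean cpm was 1.54 for Z genes and 0.978 for non-Z genes. The small shift of non-Z genes depended on the scaling. Their median log2 fold change was -0.0325 in the main fit and -0.0066 with TMM factors computed from non-Z genes alone. Relative to the mean of the female samples, the median Z gene stood at 1.55, 1.5 and 1.56 in the 3 male samples, and at 0.988, 0.997 and 1.01 in the 3 female samples. The median non-Z gene stood at 0.972, 0.974 and 0.980 in male samples, against 0.999, 1.00 and 0.999 in female samples. All male samples thus lay close together and far from all female samples in their Z genes, with a distance between the sexes well above the spread within either sex.

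**Figure D1:**
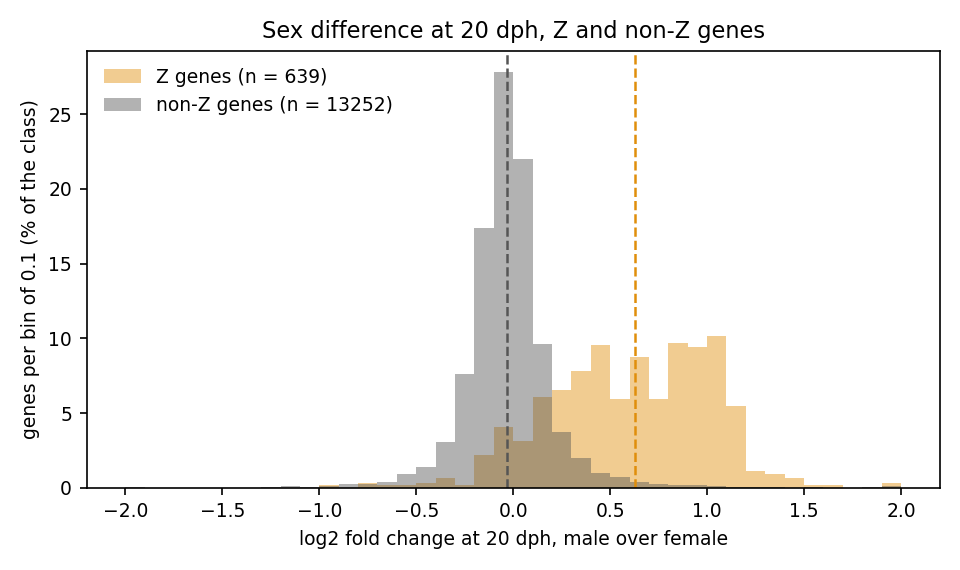
Distribution of the log2 fold change at 20 dph, male over female (x axis), for Z genes and non-Z genes, as the percentage of the genes of each class in bins of 0.1 (y axis). Dashed lines mark the medians, 0.63 for Z genes and -0.03 for non-Z genes, and values beyond 2 on either side are drawn in the outermost bins.

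Z genes took 3.88%, 3.75% and 3.87% of the counts on tested genes in the male samples, against 2.66%, 2.67% and 2.68% in the female samples. The mean was 3.84% ± 0.0698 in males and 2.67% ± 0.0132 in females (SD, n = 3 each), a difference of 1.17 percentage points. The samples of the sexes did not overlap, and the exact two-sided permutation test gave p = 0.1, the smallest p that 3 samples against 3 allow.

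The M:F ratio varied from one Z gene to another. It was 1.25 at the lower and 1.92 at the upper quartile, and 90% of Z genes lay between 0.952 and 2.23. A ratio of at least 1.8 was found for 219 Z genes (34.3%), of which 188 were called. Another 282 (44.1%) had a ratio between 1.2 and 1.8, and 149 of these were called. The ratio was below 1.2 for 138 Z genes (21.6%), and 6 of them were called.

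Z genes were divided by level into 3 parts of 213 genes. In the part with the lowest expression, up to 9.79 cpm, the median ratio was 1.6 and 28.6% were called higher in males. In the middle part the median ratio was 1.54 and 62.0% were called, and in the highest part, from 42.5 cpm upwards, these values were 1.49 and 68.5%. The median standard error of the log2 fold change was 0.23, 0.12 and 0.09 in these parts from low to high, and Spearman's rho between fold change and level was -0.0988 across the 639 Z genes, which are not independent replicates.

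The 339 called Z genes higher in males had a median log2 fold change of 0.88, with quartiles of 0.64 and 1.03 and a range from 0.25 to 1.49. The log2 fold change exceeded 1, a difference of more than 2-fold, for 103 of them. Among called Z genes of at least 10 cpm with a symbol, those with the largest differences were C5orf63, RPL17 (a protein of the large ribosomal subunit), EMC4 (part of the membrane protein insertase of the endoplasmic reticulum), GRHPR (which reduces glyoxylate), ACAA2 (the last enzyme of mitochondrial beta-oxidation), CDC25B (a phosphatase that activates cyclin-dependent kinases), CENPK (a kinetochore protein), PRXL2C, ATP5ME (a subunit of ATP synthase) and RPS23 (a protein of the small ribosomal subunit).

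C5orf63 (ENSTGUG00000006493) had the largest fold change of these, with 25.3, 27.0 and 19.1 cpm in male samples, against 8.40, 7.38 and 11.3 cpm in female samples. The log2 fold change was 1.4, with a standard error of 0.33 (edgeR adjusted p = 0.0131), and the spread between its samples was wide. The call was lost when male sample 1, male sample 2, female sample 1 or female sample 2 was left out, with edgeR adjusted p between 0.0507 and 0.102. The other 9 genes were called in each such fit.

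RPL17 (ENSTGUG00000000044) had 239, 234 and 263 cpm in male samples, against 99.1, 114 and 100.1 cpm in female samples (log2 fold change 1.23, edgeR adjusted p = 2.41e-06). EMC4 (ENSTGUG00000007133) had 62.7, 69.0 and 61.6 cpm in males and 28.3, 25.2 and 28.2 cpm in females (log2 fold change 1.24, adjusted p = 2.03e-06 from edgeR's test). ATP5ME (ENSTGUG00000000178) had 381, 429.6 and 350.5 cpm in males and 178, 155 and 176 cpm in females (log2 fold change 1.19, adjusted p = 2.51e-08 from edgeR's test). In all 3 genes every male sample stood far above every female sample, and a lack of overlap was a condition of their choice. The log2 fold changes of GRHPR, ACAA2, CDC25B, CENPK, PRXL2C and RPS23 were 1.24, 1.22, 1.21, 1.2, 1.19 and 1.16.

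The 6 Z genes with the smallest p were not among these 10. TTC37 (ENSTGUG00000000732), a scaffold of the complex that feeds RNA to the cytoplasmic exosome, had 95.5, 96.2 and 92.1 cpm in male samples, against 49.2, 43.1 and 45.5 cpm in female samples. The log2 fold change was 1.04, with a standard error of 0.07 (edgeR adjusted p = 1.32e-08), the smallest p of all tested genes. SLC30A5 (ENSTGUG00000000636), a zinc transporter of the secretory pathway, had 191, 194 and 183 cpm in males and 94.9, 91.8 and 94.0 cpm in females, with a log2 fold change of 1.01 (adjusted p = 1.37e-08 from edgeR's test). Both genes were read at 2.06 and 2.02 times the female level in males.

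CCNH (ENSTGUG00000001165), the cyclin of the kinase that activates other cyclin-dependent kinases, had 75.5 ± 1.26 cpm in males and 38.1 ± 0.962 cpm in females (SD, n = 3 each), a log2 fold change of 0.99. INIP (ENSTGUG00000001248), a subunit of a complex that binds single-stranded DNA, had 115 ± 2.10 cpm in males and 54.1 ± 1.31 cpm in females (SD, n = 3 each), a log2 fold change of 1.09. TBCA (ENSTGUG00000003968), a chaperone of beta-tubulin, had 279, 289 and 254 cpm in males and 131, 125 and 132 cpm in females, a log2 fold change of 1.09. The log2 fold change of SERF1A (ENSTGUG00000001546) was 1.15, with 241.5 ± 9.85 cpm in males and 108.5 ± 3.35 cpm in females (SD, n = 3 each). Each of these 4 genes had an edgeR adjusted p of 1.37e-08. They were chosen for the smallest p, so that a difference far above the spread between samples was part of the choice.

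**Figure D2:**
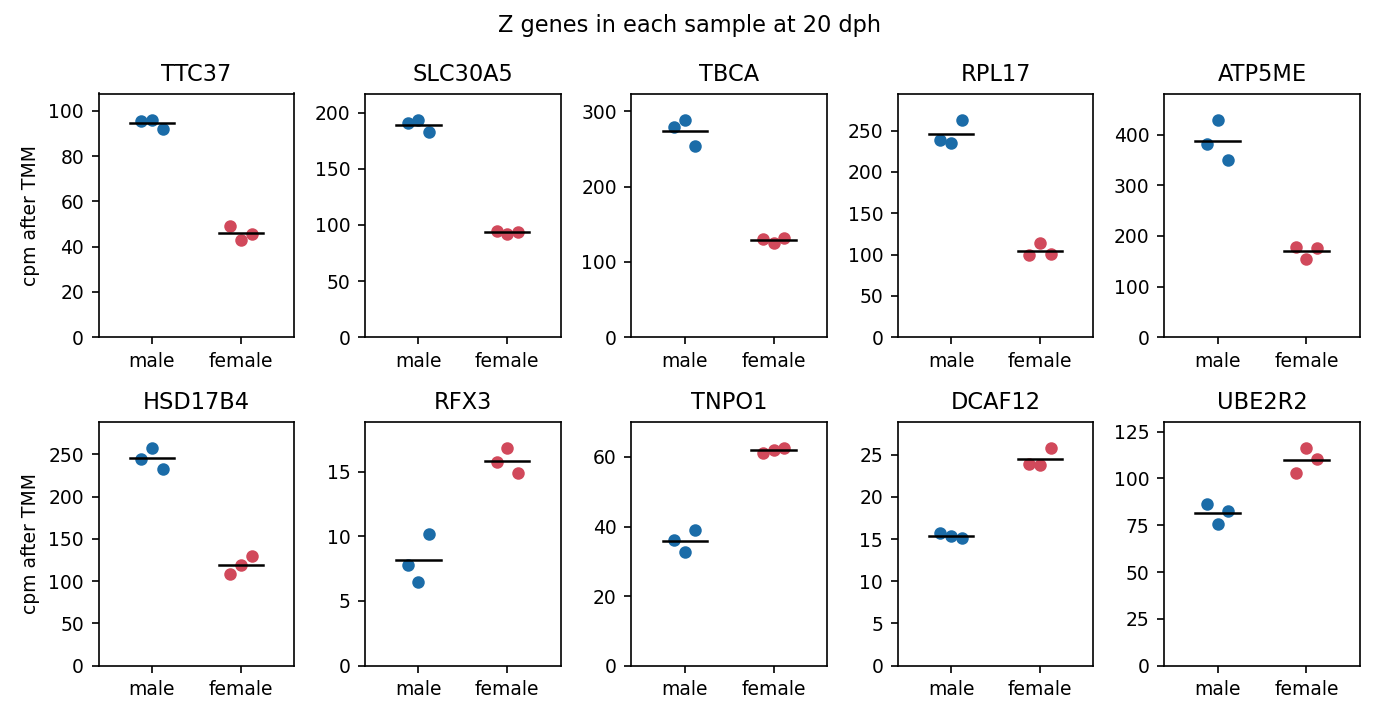
Expression in cpm after TMM (y axes, from 0) of 10 Z genes in the 3 male samples (left, blue) and the 3 female samples (right, red) at 20 dph, with black lines at the means. The first 6 genes were higher in males, for example TTC37 with 92.1 to 96.2 cpm in males and 43.1 to 49.2 cpm in females, and the last 4 genes (RFX3, TNPO1, DCAF12 and UBE2R2) were higher in females.

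Higher expression in females was called for 4 Z genes. TNPO1 (ENSTGUG00000005729), an import receptor that carries RNA-binding proteins into the nucleus, had 36.3, 32.7 and 38.9 cpm in male samples, against 61.1, 62.1 and 62.5 cpm in female samples. The log2 fold change was -0.78, with a standard error of 0.11 (edgeR adjusted p = 1.58e-05). All males lay well below all females, with a narrow spread among the female samples.

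RFX3 (ENSTGUG00000005287), a transcription factor of genes for cilia, had 7.80, 6.49 and 10.2 cpm in males and 15.8, 16.8 and 14.9 cpm in females, with a log2 fold change of -0.96 (adjusted p = 0.00564 from edgeR's test). This was the largest difference of the 4, and the call was lost without male sample 2 (edgeR adjusted p = 0.0650, log2 fold change -0.81). DCAF12 (ENSTGUG00000001704), a substrate receptor of a CUL4 ubiquitin ligase, had 15.7, 15.3 and 15.2 cpm in males and 23.9, 23.7 and 25.8 cpm in females, a log2 fold change of -0.67 (adjusted p = 0.000246 from edgeR's test). UBE2R2 (ENSTGUG00000001683), a ubiquitin-conjugating enzyme, had 86.2, 75.4 and 82.3 cpm in males and 103, 116 and 110.5 cpm in females, a log2 fold change of -0.43 (adjusted p = 0.000178 from edgeR's test). All 4 genes had the same sign at 1 and 65 dph and in adults, and the edgeR log2 fold changes of TNPO1 were -0.19 at 1 dph, -0.39 at 65 dph and -0.16 in adults. Those of RFX3 were -0.98, -0.20 and -0.02 at these ages, each with a standard error of 0.20, so that its adult sign carried no information. Of the 4 genes, 2 were called at 1 dph, 3 at 65 dph and 0 in adults.

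Some Z genes have a partner on the W chromosome. The assembly to which the reads were aligned comes from a male bird and holds no W chromosome. Any reads of a W partner that aligned to its Z gene in females could not be told apart from those of the Z gene. Whether such reads aligned there was not examined. From a list of 26 symbols of Z genes with a W copy in chicken, 23 were found among the tested genes, in 24 entries. The symbols ATP5A1 and ATP5F1A in this list name the same gene. Their median log2 fold change was 0.12, against 0.63 for the other 615 Z genes. In this list 7 entries (29.2%) were called higher in males and UBE2R2 was called higher in females, whereas 332 of the other Z genes (54.0%) were called higher in males. The part of W reads in these values was not tested.

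The genes of this list ranged from -0.43 for UBE2R2 to 1.23 for RPL17. TXNL1 had 105, 99.7 and 98.3 cpm in males and 104, 99.5 and 98.3 cpm in females, so that the sexes overlapped almost fully. ZFR, a zinc finger RNA-binding protein, had 142, 123 and 142 cpm in males and 132, 142 and 138 cpm in females. VCP, an ATPase that extracts proteins for degradation, had a log2 fold change of 0.03. On the other side, BTF3, which binds nascent chains at the ribosome, had 216, 222 and 199.5 cpm in males and 122, 124 and 119.7 cpm in females, a log2 fold change of 0.80 (adjusted p = 1.37e-08 from edgeR's test). The called entries of SMAD2 and SMAD7 lost their calls without female sample 1 (SMAD2, edgeR adjusted p = 0.0691) and without female sample 3 or male sample 3 (SMAD7, edgeR adjusted p = 0.0762 and 0.0650). SMAD7 is listed under 2 identifiers, and how reads fitting both were counted is not stated, so that its values are uncertain.

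Near-equal expression was also found for Z genes of high level outside this list. SLC1A3, the astrocyte glutamate transporter, had 357, 343 and 351 cpm in males and 326, 349 and 392 cpm in females (log2 fold change -0.02, standard error 0.08). APBA1, an adaptor of presynaptic membranes, had 265, 232 and 299 cpm in males and 254, 278 and 275 cpm in females (log2 fold change -0.02, standard error 0.12). Like TXNL1 and ZFR, these genes were chosen for a log2 fold change near 0 at 20 dph, so that their values here are no independent support for equal expression. At 1 and 65 dph the log2 fold changes were 0.29 and 0.21 for SLC1A3 and 0.41 and 0.36 for APBA1. Of these, that of SLC1A3 at 1 dph was called (edgeR adjusted p = 0.0417).

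The study sorted Z genes into 3 classes by their M:F ratios at 1 dph and in adults. These classes were made on other samples of the same series, and not on those of 20 dph. They rest in part on the adult male samples, of which samples 1 and 3 had shares of counts on Z genes of 3.08% and 3.35%, near those of the adult females (3.03% to 3.15%), so that the class names are given as the study's terms only. Of the 132 genes in the class without compensation, 91 were called higher in males at 20 dph, with a median log2 fold change of 0.95. Of the 428 genes in the class named as acquiring compensation, 245 were called higher in males, with a median of 0.62. In the class compensated from birth, 3 of 78 genes were called higher in males and 4 higher in females, and the median was 0.02. TTC37, SLC30A5 and CCNH belong to the acquired class and RPL17, EMC4 and TBCA to the class without compensation, and the 4 Z genes higher in females all belong to the class compensated from birth.

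**Figure D3:**
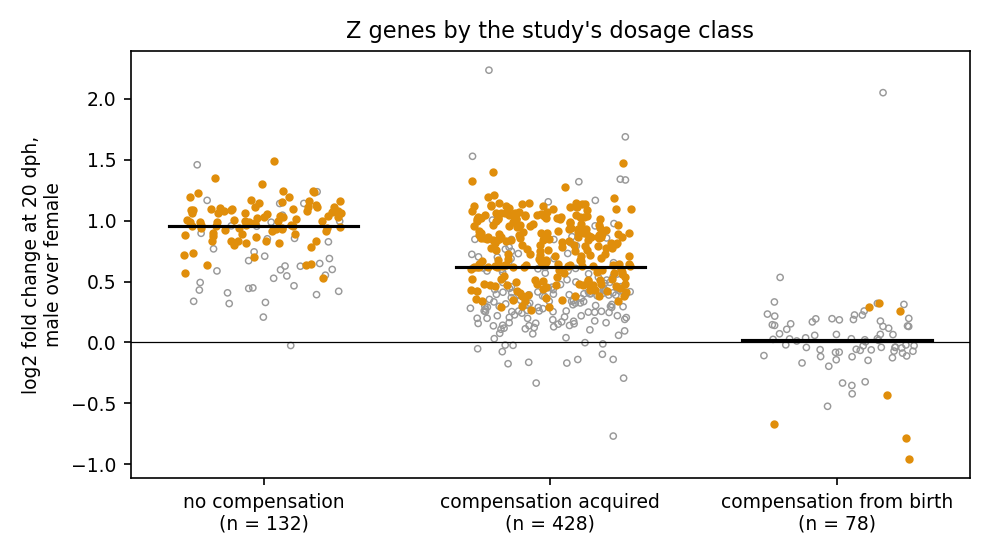
Log2 fold change at 20 dph, male over female (y axis), of each Z gene in the study's 3 dosage classes (x axis), with filled orange points for called genes, open grey points for genes not called and black lines at the medians. The medians were 0.95, 0.62 and 0.02 from left to right, and the called genes below 0 were all in the class compensated from birth.

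Among non-Z genes, 11 were called higher in males and 22 higher in females, and 29 of the 33 had no symbol or chromosome in the sources used. Absolute log2 fold changes were between 0.43 and 1.23 in those higher in males and between 0.24 and 2.63 in those higher in females, with medians of 0.97 and 0.37. When 1 sample was left out, 7 to 14 genes were called higher in males and 6 to 21 higher in females, while Z genes called higher in males numbered 298 to 322. Calls higher in males numbered 7 without female sample 2, and those higher in females numbered 6 without male sample 2, 9 without female sample 2, 10 without male sample 1 and 14 without female sample 3.

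TTC28 (ENSTGUG00000007824, chromosome 15), a large protein with tetratricopeptide repeats, had 175, 160.5 and 185 cpm in male samples, against 232, 257 and 203 cpm in female samples. The log2 fold change was -0.41, with a standard error of 0.11 (edgeR adjusted p = 0.0324). SPIRE1 (ENSTGUG00000009591, chromosome 2), a nucleator of actin filaments, had 48.6, 51.1 and 59.7 cpm in males and 67.6, 63.8 and 68.1 cpm in females, a log2 fold change of -0.32 (edgeR adjusted p = 0.0342). SS18 (ENSTGUG00000010587, chromosome 2), a subunit of the BAF chromatin remodelling complex, had 34.5, 34.5 and 36.1 cpm in males and 40.8, 43.7 and 41.7 cpm in females, a log2 fold change of -0.26 (edgeR adjusted p = 0.0450). The differences were only 1.2-fold to 1.33-fold. The sexes did not overlap for any of the 3, but this was a condition of their choice and adds no support.

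ACAD10 (ENSTGUG00000006542, chromosome 15), a mitochondrial acyl-CoA dehydrogenase, was the one non-Z gene with a symbol that was called higher in males. It had 3.85, 3.65 and 4.42 cpm in males and 2.33, 2.0 and 2.86 cpm in females, a log2 fold change of 0.73 (standard error 0.19, edgeR adjusted p = 0.0332). Each of these 4 genes lost its call when certain single samples were left out. SS18 lost it without any 1 of the 6 samples (edgeR adjusted p 0.0713 to 0.239), SPIRE1 without any but male sample 3 (0.0527 to 0.257), TTC28 without male samples 1 or 2 or female samples 1 or 2 (0.101 to 0.276), and ACAD10 without male samples 1 or 3 or female samples 1 or 2 (0.0760 to 0.240). With TMM factors computed from non-Z genes alone, SS18, SPIRE1 and TTC28 were not called either (edgeR adjusted p = 0.0945, 0.0587 and 0.0522). In a fit of the 6 samples of 20 dph alone, ACAD10, SPIRE1 and SS18 were not called (edgeR adjusted p = 0.116, 0.147 and 0.177). SPIRE1 and SS18 also lost their calls without a filter on low counts (edgeR adjusted p = 0.0551 and 0.105), and SS18 with DESeq2's size factors (edgeR adjusted p = 0.0629) and with limma-voom (adjusted p = 0.0812).

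The largest difference of any called gene was that of ENSTGUG00000017276, whose chromosome and symbol are not given. It had 1, 3 and 4 counts in the male samples, against 21, 19 and 8 counts in the female samples, that is 0.05, 0.109 and 0.165 cpm against 0.904, 0.866 and 0.375 cpm. The counts in females were 6.46 times those in males relative to library size, with an exact 95% interval from 3.03 to 15.8 that covers counting error only. The edgeR log2 fold change was -2.63 (standard error 0.69, adjusted p = 0.0375), and the call was lost in 5 of the 6 fits without a sample (edgeR adjusted p 0.0714 to 0.185), all but that without female sample 3, and with limma-voom (adjusted p = 0.108). The second-largest difference in this direction was that of ENSTGUG00000012799, with 0.6, 0.729 and 0.827 cpm in males and 1.77, 1.37 and 1.22 cpm in females. It likewise held its call only without female sample 3 (edgeR adjusted p otherwise 0.0656 to 0.265) among these fits, and 4 other settings ended the call of ENSTGUG00000012799 as well, with adjusted p between 0.0501 (edgeR) and 0.156 (edgeR, 6 samples alone).

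Several non-Z genes without a known chromosome had male-to-female differences of the size found for Z genes. ENSTGUG00000014190 had a mean of 73.2 cpm in males and 37.3 cpm in females, a log2 fold change of 0.97 (edgeR adjusted p = 2.75e-08). ENSTGUG00000014185 had 28.1 cpm in males and 13.2 cpm in females, a log2 fold change of 1.09 (edgeR adjusted p = 6.93e-07). ENSTGUG00000015005 had 5.55, 4.49 and 4.51 cpm in males and 2.33, 1.87 and 2.06 cpm in females, a log2 fold change of 1.21 (edgeR adjusted p = 0.000981). In these 3 genes the difference was also present at 1 dph, with log2 fold changes of 1.00, 0.90 and 1.40, and at 65 dph, with 0.96, 1.00 and 1.34. By contrast ENSTGUG00000002072, with 1.2, 0.912 and 1.32 cpm in males and 0.431, 0.365 and 0.655 cpm in females (log2 fold change 1.23, edgeR adjusted p = 0.0178), had log2 fold changes of 0.38 at 1 dph and -0.15 at 65 dph. Its call was lost without male samples 1 or 3 or female samples 1 or 2 (edgeR adjusted p 0.0646 to 0.143) and with DESeq2's Wald test (adjusted p = 0.0699).

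Genes of known pathways were examined in lists, and the members that passed the test were Z genes in every list. Only members with a symbol in the sources used could be found, so that the lists are incomplete. The median log2 fold change was -0.03 over all tested genes, 0.63 over Z genes and -0.03 over non-Z genes. Of all Z genes 53.1% were called higher in males, and of non-Z genes 0.083%. The lists are to be read against these values, and members of a list are not independent replicates.

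Neurotrophins, cytokines and their receptors act on the survival and growth of neurons of the song system. Of 21 genes listed, 12 were found, 7 of them on the Z chromosome, and GHR, the growth hormone receptor, was the one called. GHR had 13.5, 11.2 and 14.7 cpm in male samples and 9.13, 8.48 and 10.1 cpm in female samples, without overlap (log2 fold change 0.51, edgeR adjusted p = 0.00837), and its call was lost without male sample 3 or female sample 2 (edgeR adjusted p = 0.0884 and 0.0771) and in a fit of the 6 samples of 20 dph alone (edgeR adjusted p = 0.0767). NTRK2, the receptor of BDNF, had 320.2, 289 and 362 cpm in males and 268, 269.5 and 278 cpm in females, a log2 fold change of 0.25 that was not called (standard error 0.11, edgeR adjusted p = 0.463). Its log2 fold changes at 1 and 65 dph were 0.54 and 0.57, and both were called (edgeR adjusted p = 0.00410 and 0.00194). The study reported NTRK2 as higher in males, though not in adults. At 20 dph it was called in none of 15 settings here, the 2-stage test of the study's methods among them. At 20 dph the samples of the sexes did not overlap, but the 3 male samples spread widely. Male samples all lay above female samples for 77.8% of Z genes. GADD45G, a stress-inducible regulator of DNA repair, had 10.5, 9.55 and 9.76 cpm in males and 7.49, 8.75 and 6.09 cpm in females, also without overlap or a call (log2 fold change 0.41, edgeR adjusted p = 0.133). GADD45G was called with the 2-stage test of the study's methods (adjusted p = 0.0131 from edgeR fits) and without female sample 2 (edgeR adjusted p = 0.0364). The Z genes LIFR and IL6ST, which form the receptor of leukemia inhibitory factor, had log2 fold changes of 0.40 and 0.41 and were not called either (edgeR adjusted p = 0.305 and 0.227). The 5 non-Z members, BDNF itself among them, lay between -0.16 and 0.02.

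Estrogens and androgens masculinize parts of the song system. Of 20 genes of steroid synthesis and steroid receptors, 4 were found. HSD17B4 (ENSTGUG00000001154), a Z gene whose peroxisomal enzyme oxidizes estradiol and breaks down fatty acids, had 245, 257 and 233 cpm in male samples, against 109, 119 and 129.8 cpm in female samples. Its log2 fold change was 1.04 (standard error 0.09, edgeR adjusted p = 3.05e-08), and the sexes lay far apart. CYP19A1, the aromatase that makes estradiol, had 15.1, 9.52 and 15.4 cpm in males and 11.5, 13.2 and 10.4 cpm in females, with full overlap (log2 fold change 0.18, edgeR adjusted p = 0.853).

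Cholesterol is the substrate of steroid synthesis and a building block of myelin and synapses. Of the genes listed, VLDLR and HMGCS1 are Z genes that were called. VLDLR, a receptor for lipoproteins and reelin, had 123, 116 and 119.6 cpm in males and 76.0, 81.5 and 78.7 cpm in females (log2 fold change 0.60, edgeR adjusted p = 2.17e-07). HMGCS1, a synthase of the mevalonate pathway, had a smaller difference, with a log2 fold change of 0.29 (edgeR adjusted p = 0.00629), and its call was lost without female sample 1 (edgeR adjusted p = 0.0791). The 5 non-Z genes of the pathway had log2 fold changes from -0.24 to -0.07, and none was called.

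Glucosylceramide is the root of the glycolipids of nerve cell membranes. Of 15 genes listed, 6 were found, and 3 of the 4 Z genes were called, beside 53.7% of all Z genes. SPTLC1, a subunit of the first enzyme of ceramide synthesis, had 58.9, 48.5 and 57.8 cpm in males and 29.1, 28.4 and 30.9 cpm in females (log2 fold change 0.90, edgeR adjusted p = 6.9e-05). UGCG, which adds the glucose, and GBA2, which removes it, had log2 fold changes of 0.64 and 0.48 (edgeR adjusted p = 0.000155 and 0.00125). Enzymes of both directions were thus higher in males, while UGT8 and B4GALT6, which are not Z genes, had log2 fold changes of -0.03 and -0.10.

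Large complexes joined products of Z genes with products of other chromosomes. Of 20 entries of oxidative phosphorylation, the 5 Z genes were all called higher in males, with log2 fold changes of 1.19 for ATP5ME, 1.11 for NDUFS4, 0.91 for NDUFAF2, 0.59 for ATP5F1A and 0.53 for COX7C. Of all 639 Z genes, 339 were called higher in males. None of the 15 non-Z entries was called, and they lay between -0.28 and 0.18 with a median of 0.09 and 12 of them above 0. Both ends of this range were entries of NDUFS1, ENSTGUG00000009895 at -0.28 and ENSTGUG00000016878 at 0.18, so that the values of NDUFS1 are uncertain. NDUFS4, a subunit of complex I, had 119, 129 and 108 cpm in males and 57.2, 53.2 and 55.0 cpm in females. COX7C lost its call without male sample 2 or female sample 3 (edgeR adjusted p = 0.185 and 0.125).

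The ribosome showed the same division. Of 54 entries whose symbols start with RPS or RPL and a digit, among them the kinases RPS6KA1 and RPS6KB2, the 4 Z genes RPL17, RPS23, RPS6 and RPL37 were all called, with log2 fold changes of 1.23, 1.16, 1.10 and 0.78. RPS6 had 628, 622 and 575 cpm in males and 294, 279 and 281 cpm in females. None of the 50 other entries was called. Their log2 fold changes lay between -0.09 and 0.22 with a median of 0.09, and 47 of the 50 were above 0, or 48 and 49 with the other scalings. The male samples all lay above the female samples in 3 of the 50, beside 3.81% of all non-Z genes. Of all 13252 non-Z genes, 5367 were above 0 in the main fit.

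No member was called in the lists of the transmitter release machinery, of immediate early genes, of Wnt signalling and of serotonin, where edgeR's test gave an unadjusted p below 0.05 for 2 of 18, 0 of 6, 4 of 14 and 1 of 7 genes in that order. Over all tested genes this share was 9.3%, over Z genes 76.4% and over non-Z genes, which make up most of these lists, 6.07%. The 18 genes of transmitter release had a median log2 fold change of -0.05, and SNAP25 had 2299, 2509 and 2386 cpm in males, against 2535, 2358 and 2394 cpm in females, with overlap. Immediate early genes respond to neuronal activity within minutes. EGR1 had 287, 268 and 349.6 cpm in males and 259, 251 and 226 cpm in females, and FOS had 44.7, 47.7 and 58.6 cpm in males and 42.0, 42.5 and 34.9 cpm in females. The samples of the sexes did not overlap in either gene, but neither difference passed the test (log2 fold changes 0.30 and 0.34, edgeR adjusted p = 0.565 and 0.597). Neither is a Z gene, and male samples all lay above female samples for 3.81% of non-Z genes. The 14 Wnt genes had a median of -0.16 and lay between -0.38 and 0.29. The 13 non-Z genes among them had a median of -0.21, and 1 of the 13 was above 0, or 3 and 4 with the other scalings. Of all 13252 non-Z genes, 5367 were above 0 in the main fit.

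Of 30 cell cycle genes, SMC2 was the one called, a Z gene for a subunit of condensin, with 11.6, 10.3 and 11.0 cpm in males and 3.83, 6.47 and 5.52 cpm in females (log2 fold change 1.06, edgeR adjusted p = 1.23e-05). The 29 others lay between -0.35 and 0.43, with a median of 0.04. Among markers of cell types, TEK, an endothelial receptor encoded on the Z chromosome, was called higher in males (log2 fold change 0.69, edgeR adjusted p = 0.0180), and its call was lost without male samples 1 or 3 or female samples 1 or 2 (edgeR adjusted p 0.0601 to 0.143). The 5 other endothelial and mural markers lay between -0.22 and 0.06. No marker of GABAergic neurons, striatal projection neurons, astrocytes or oligodendrocytes was called, and none of the 13 microglial and immune markers could be found by symbol. Most of these markers were non-Z genes, of which 0.249% were called over all tested genes.

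**Figure D4:**
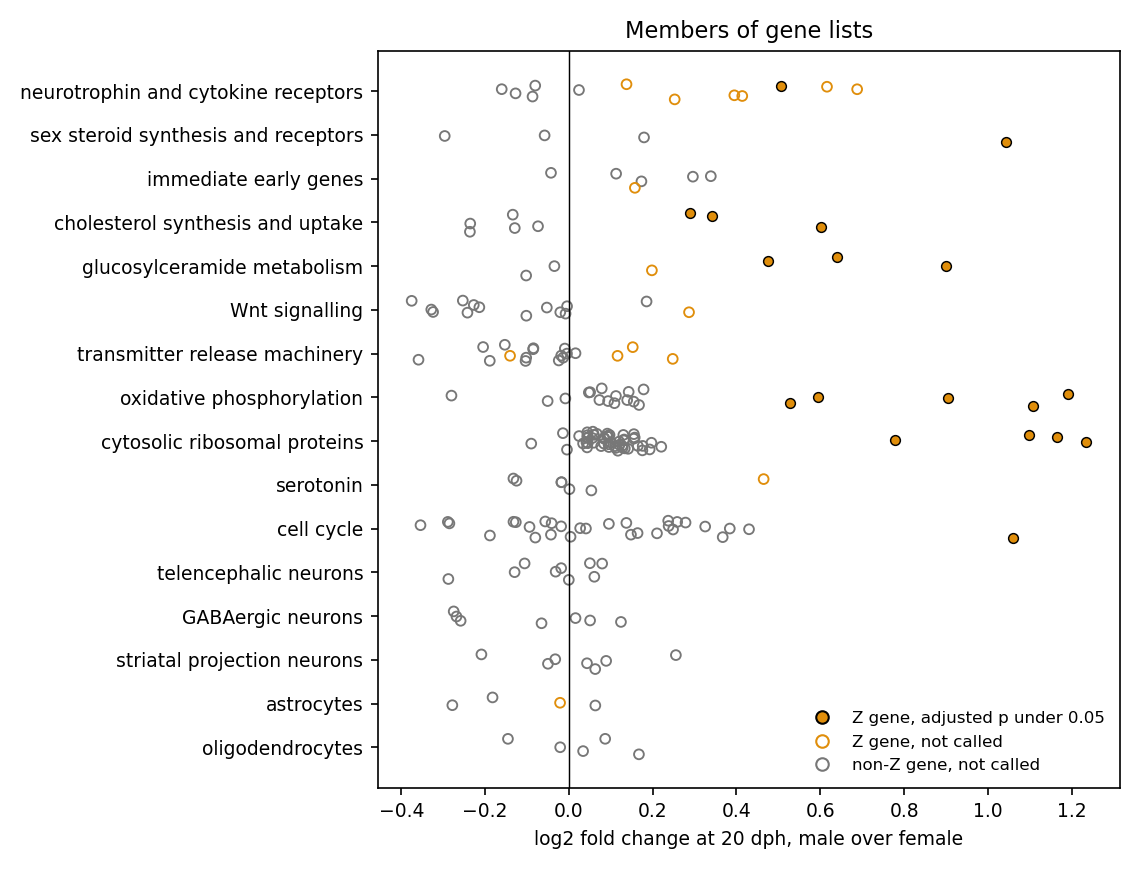
Log2 fold change at 20 dph, male over female (x axis), of each member of 16 gene lists (rows). Filled orange points are Z genes that were called, open orange points Z genes that were not, and open grey points non-Z genes, none of which was called. The 5 filled points of oxidative phosphorylation lie between 0.53 and 1.19, and the 4 of the ribosomal proteins between 0.78 and 1.23.

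The sex difference at 20 dph was then set against that at the other ages, which share no samples with it. The difference of the log2 fold change at 20 dph from the mean of those at 1 and 65 dph was tested for each gene, and 0 genes were called with edgeR's quasi-likelihood test (0% of those tested), although 1145 genes had an unadjusted p below 0.05. DESeq2's Wald test and edgeR's likelihood ratio test called 1 gene each. The 339 Z genes called higher in males at 20 dph were also higher in males at 1 and 65 dph in all cases, and 325 of them were called at 1 dph and 312 at 65 dph. Their median log2 fold change was 0.89 at 1 dph, 0.88 at 20 dph and 0.85 at 65 dph. Over all 639 Z genes the median was 0.75, 0.63 and 0.71 at these ages.

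The called non-Z genes were then looked up at the neighbouring ages. Of the 22 non-Z genes called higher in females at 20 dph, 3 were called at 1 dph and 4 at 65 dph, and the difference had the same sign in 19 at either age. Of the 11 called higher in males, 6 were called at 1 dph and 6 at 65 dph. SPIRE1 had log2 fold changes of 0.10 at 1 dph and 0.08 at 65 dph, and ACAD10 had 0.24 and -0.13, so that their differences were not called outside 20 dph. Whether these 2 effects differ between the ages was covered by the test above, with an edgeR adjusted p of 0.599 for both.

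The adult samples set a limit to the comparison with adults. Z genes took 3.08%, 3.87% and 3.35% of the counts in the adult male samples and 3.06%, 3.15% and 3.03% in the adult female samples, so that adult male sample 1 lay among the females. At 20 dph, by contrast, the male samples had at least 3.75% and the female samples at most 2.68%. ENSTGUG00000017276, which had at most 0.165 cpm in males at 20 dph, had 0.507, 0.0505 and 1.17 cpm in the adult male samples and 0.949, 0.904 and 0.552 cpm in the adult female samples. Adult male samples 1 and 3 thus lay outside the range of the males of 20 dph in both measures, whereas adult male sample 2 lay within it. The adult female samples likewise all lay above the females of 20 dph in their share of counts on Z genes. The part of age in these shares was not tested. Adult male sample 3 lay above all adult female samples in both measures. ENSTGUG00000001661 had 120 ± 52.4 cpm in adult male and 3.94 ± 3.94 cpm in adult female samples (SD, n = 3 each). ENSTGUG00000014010 had 24.4 ± 10.6 and 0.485 ± 0.392 cpm in these samples. Both were called higher in adult males (edgeR adjusted p = 1.69e-05 and 3.33e-06), and neither was called at 20 dph. The bearing of these 2 genes on the sex labels of the adult pools was not tested. The study reads the weaker male bias of Z genes in adults as dosage compensation that grows with age. Its methods, after describing the birds for immunofluorescence, state that sex was judged from the gonads and then checked by PCR. Which reading applies was not tested. Whether every bird of adult male samples 1 and 3 was of the labelled sex could not be checked here, so that the sex labels of these 2 pools are in doubt. All values that use the adult males, the adult fold changes among them, carry this doubt.

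**Figure D5:**
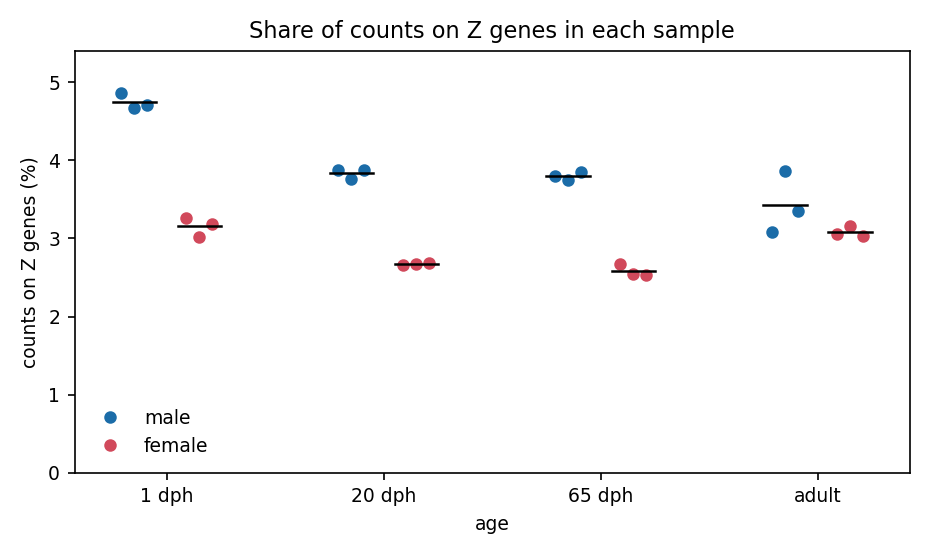
Percentage of the counts on tested genes that fell on Z genes (y axis, from 0) in each male sample (blue, left) and female sample (red, right) at the 4 ages (x axis), with black lines at the means. At 20 dph the male samples had 3.75% to 3.88% and the female samples 2.66% to 2.68%, and in adults the sexes overlapped.

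With all samples, the log2 fold change at 20 dph differed from that in adults for 131 genes, 0.943% of those tested (edgeR's quasi-likelihood test, Benjamini-Hochberg adjusted p below 0.05). The difference, 20 dph minus adults, was below 0 in 4 of these, among them TNPO1, ENSTGUG00000001661 and ENSTGUG00000014010. The male bias was larger at 20 dph in the other 127. They were 125 Z genes and ENSTGUG00000014185 and ENSTGUG00000014190, whose chromosome is not known here and which were counted as non-Z. The 125 Z genes had median log2 fold changes of 1.00 at 20 dph and 0.25 in adults. Among the 5 genes with the smallest p were PLPP1, a lipid phosphate phosphatase of the cell surface, SNX2, a sorting nexin of endosomes, and GNG10, a gamma subunit of G proteins. TTC37 had a log2 fold change of 1.04 at 20 dph and 0.23 in adults, a difference of 0.82 (standard error 0.10, edgeR adjusted p = 0.000655). In adults TTC37 had 89.8, 111 and 101 cpm in males and 80.2, 85.3 and 92.5 cpm in females, so that the sexes overlapped, which they did not at 20 dph.

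The comparison with adults was repeated without each adult sample in turn, an alternative chosen after the values were seen. The number of called genes was 96 without adult male sample 1, 210 without adult male sample 2 and 88 without adult male sample 3, and between 93 and 144 without an adult female sample. The 5 genes with the smallest p stayed called in all 6 fits, TTC37 with differences between 0.74 and 0.90. The part of the makeup of the adult samples in this difference was not tested.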

How the data were processed

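RNA of 24 pools of 3 telencephalons was sequenced with a stranded mRNA kit, and 6 pools of 20 dph were compared here. The authors deposited raw counts of reads per Ensembl gene, made with STAR 2.5.2b, SAMtools 0.1.18 and htseq-count (HTSeq 0.6.0) on assembly taeGut3.2.4 (Ensembl release 87) after quality control with FastQC 0.10.1, without normalization. Symbols and Z linkage were taken from the supplementary tables of the study, for identifiers only.

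Counts were analysed with edgeR 4.0.16 in R 4.3.3. The filter kept 13891 of 18618 genes, those reaching 1 cpm in 3 or more of the samples. Factors from TMM and quasi-likelihood fits with a mean for each of 8 groups over all 24 samples were used, with Benjamini-Hochberg adjustment over all genes at 0.05, and the contrast was male minus female. The common biological coefficient of variation was 0.111. Tests of the difference between ages used interaction contrasts of the same model. Labels number the pools without pairing them. Python 3.11.15 with scipy 1.17.1 was used for ratios and exact permutation tests.

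Named genes were chosen by rule among called genes without overlap of the sexes: the 10 Z genes with a symbol and at least 10 cpm with the largest fold change, the 6 Z genes with the smallest p, called Z genes higher in females, up to 10 non-Z genes with a symbol per direction, and 2 genes without a symbol per direction. Further ones were 4 Z genes of at least 50 cpm nearest to 0, NTRK2 and GADD45G, the 5 genes with the smallest p against other ages, and called members of lists. Not all are printed, and 1 gene is not reported here. ENSTGUG00000014190, ENSTGUG00000014185 and list members that were not called were chosen after their values were seen. Members and lists were chosen with earlier results of these data known. Alternatives were DESeq2 1.42.0, other scalings, filters and tests, limma-voom, the 2-stage test of the study, and each sample left out. In simulated data for the 20 dph comparison (13891 genes), 56 of 100 genes with a 1.5-fold and 83 of 100 with a 2-fold difference were called, and 9 of 13691 unchanged ones.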

Additional observations from a re-analysis of the deposited data

Results flagged for a closer look

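The sex effect at 20 dph differed from that in adults for 131 genes in the edgeR test of the difference itself. The smallest p was that of TTC37, with a log2 difference of 0.82 between the effects at 20 dph and in adults, followed by SLC30A5 with 0.76, GNG10 with 0.69, SNX2 with 0.82 and PLPP1 with 0.84, all Z genes with a larger male bias at 20 dph. Since there were 3 samples per group, single samples were not tested as outliers. The adult male samples were uneven in the share of counts on Z genes, with values from 3.08% to 3.87%, the sex labels of adult male samples 1 and 3 are in doubt, and the part of this in the differences was not tested.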

How the results depend on the processing

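The number of genes called for sex at 20 dph lay between 327 and 345 when 1 sample was left out, with 298 to 322 Z genes higher in males, 3 to 4 Z genes higher in females, 7 to 14 non-Z genes higher in males and 6 to 21 higher in females. The 2-stage test of the study's methods, rebuilt here with edgeR's quasi-likelihood fits, called 618 genes, with 51 non-Z genes higher in males and 128 higher in females. These are not counts given by the study. The likelihood ratio test called 18 non-Z genes higher in males and 35 higher in females. TMM factors from non-Z genes left 13 non-Z genes higher in females, the 6 samples of 20 dph alone 14, and a minimum of 10 cpm left 6 non-Z genes higher in males. The other alternatives stayed within 1.5 times of each of these counts, and all gave 354 to 423 genes apart from the 2-stage test and the fits without a sample. Against 1 and 65 dph, 0 genes were called without single samples of 20 dph (samples of 1 and 65 dph were not left out), and 1 gene with DESeq2's Wald test and with the likelihood ratio test. Against adults, 93 to 108 genes were called without a sample of 20 dph and 88 to 210 without an adult sample, 210 of them without adult male sample 2. The median M:F ratio of Z genes was 1.53 to 1.57 in all 9 alternatives. The difference in the share of Z genes was 1.14 to 1.21 percentage points without single samples, and 1.06 without the 10 Z genes with the most counts (exact permutation p = 0.1). No paired analysis was possible because the labels number the pools of the study without pairing males and females. No named gene changed direction among its calls. Standard errors of Z genes were larger at lower levels, and the part of depth in this was not tested.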
